A study of Mus musculus with 28 samples.

Results

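The keratin genes of the developing mouse first molar were followed from E13 to E16. A gene was included when it was annotated as protein coding and its symbol was Krt followed by a number, with or without a final letter, which selected 53 of the 21896 protein-coding genes among the 52636 genes of the count table. Of these, 28 encode type I keratins and 25 encode type II keratins. By the cell layer or structure in which they are best known, 5 were grouped as simple, 3 as basal, 17 as suprabasal, and 23 as hair keratins, and 5 were left unplaced. The suprabasal group was divided further into 13 differentiation keratins and 4 inducible keratins (Krt6a, Krt6b, Krt16, and Krt17), and the hair group into 15 keratins of the shaft and 8 of the root sheath. Krt74, which the annotation lists as no protein-coding gene, was not included. No read was counted on Krt40 and Krt81 in any library.

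The study profiled wild type tooth germs of C57BL/6JOlaHsd mice, dissected at stages labelled E13.5, E14.5, and E16.5, which are called E13, E14, and E16 here. Each library was made from the total RNA of a single first molar with little surrounding tissue, so that epithelium, mesenchyme, vessels, and blood were measured together. There were 7 teeth per stage, from 6 embryos at E14 and 5 at E16. At E13 they came from 7 embryos if replicate X, whose label gives no embryo number, came from an embryo of its own. The p values treat teeth as replicates although some pairs came from 1 embryo. A further table holds E13, E16, and 6 teeth of E15, all wild type.

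Keratins are the intermediate filament proteins of epithelial cells, and each filament is built from pairs of 1 type I and 1 type II protein. Simple epithelia are known for Krt8 and Krt18, the basal layer of stratified epithelia for Krt5 and Krt14, and layers above it for other pairs, of which Krt1 with Krt10 is typical of skin and Krt4 with Krt13 of oral and oesophageal mucosa. In the tooth germ, keratins belong to the dental epithelium and to the oral epithelium next to it, whereas the dental mesenchyme uses vimentin.

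The deposited counts summed to between 17814073 and 27115729 per library, and levels are CPM, the counts of a gene relative to the library total, scaled by TMM, the normalization of edgeR. Libraries of 2 teeth stood apart. The left tooth of embryo 3 at E16 (replicate 1) had a TMM factor of 1.19 and replicate 5 of E16 one of 0.85, against 0.952 to 1.04 in the other 19 libraries. In replicate 5, which was also the tooth highest for Krt13 and Krt4 at E16, 74.1% of counts were on protein-coding genes, against 80.4 to 91.2% elsewhere. Without it the log2 fold changes from E14 to E16 were 6.81 for Krt13 and 7.36 for Krt4, against 6.89 and 7.63 with it. In replicate 1 the 9 genes of an epithelial reference (Cdh1, Epcam, Esrp1, Esrp2, Grhl2, Ap1m2, Spint1, Rab25, and St14) summed to 410.0 CPM, against 616 to 737 CPM in the other 6 E16 teeth, and dental mesenchyme genes summed to 811 CPM against 1442 to 1882. It is drawn as an open diamond in the plot of single teeth. Without it 3207 genes were higher and 2648 lower at E14 than at E13, against 2150 and 1617 with it, and 17 keratins were higher either way. Muscle genes summed to between 38.6 and 1334 CPM in the E13 teeth and to no more than 180 CPM in the teeth of E14 and E16.

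Of the 53 keratins, the stage mean was at least 1 CPM for 13 at E13, for 16 at E14, and for 23 in the E16 teeth. The other 30 keratins stayed below 1 CPM in every stage mean, with a highest stage mean of 0.769 CPM. The filter on low counts let 24 keratins into the edgeR fit. Of these, 13 were at or above the level of the filter (0.42 CPM) in all 7 teeth of every stage, and 11 were below it in at least 1 E13 tooth. For these 11, passing the filter and being higher later are not independent, so their counts support nothing on their own.

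Between E13 and E14, 17 keratins were higher and 0 were lower in the quasi-likelihood test of edgeR at an adjusted p below 0.05. In the same comparison 19.7% of the 19101 genes tested changed, 11.3% being higher and 8.47% lower. Between E14 and E16, 17 keratins were again higher and 0 lower, where 28.1% of genes changed, 15% higher and 13.1% lower. Between E13 and E16, 22 were higher and 0 lower, where 41.3% of genes changed, 21.6% higher and 19.6% lower. Also at an unadjusted p below 0.05, edgeR found 0 keratins lower in each comparison, DESeq2 found 0, and the edgeR fit to genes with any count found 1, 1, and 0.

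The 7 teeth of the later stage all lay above those of the earlier in 11 keratins between E13 and E14, in 13 between E14 and E16, and in 22 between E13 and E16. This held for 6.36, 5.85, and 9.8% of all genes tested, and the reverse order, seen in 0 keratins, for 3.55, 5.06, and 9.16%. A called rise of at least 4-fold was found for 5, 9, and 16 keratins, against 1.02, 1.57, and 3.36% of genes. Of these, 5, 7, and 10 belong to the 11 keratins below the level of the filter in an E13 tooth, so that nothing is read from the counts of this kind. Among the 13 keratins that reached the level of the filter in every tooth, 11, 9, and 12 were higher in these comparisons, against 11.3, 15, and 21.6% of all genes. These shares are over all genes tested, also those below that level in some teeth. The share among genes that reached it in every tooth was not computed.

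These counts depend on what the libraries are scaled to, because the epithelial reference rose as well. All 9 of its genes were higher in each comparison, with median log2 fold changes of 0.61, 0.65, and 1.31. Scaled to these genes, the median of all genes moved by -0.66, -0.72, and -1.39, and the keratins split into 12 higher and 2 lower between E13 and E14. Between E14 and E16 they then split into 14 higher and 7 lower, and between E13 and E16 into 17 higher and 2 lower. With this scaling 458, 662, and 602 of all genes were higher in the 3 comparisons, and 13505, 12983, and 16422 were lower. Being lower after this scaling was therefore not particular to keratins. In whole tooth germs, more epithelial cells and more RNA per epithelial cell cannot be told apart. Macrophage genes rose over the same stages as well, 7 of 7 between E13 and E16, whereas 6 of 9 dental mesenchyme genes were lower and 1 was higher. Of the other marker lists, endothelium had 2 of 7 genes higher between E13 and E16 and 0 lower, bone 3 higher and 1 lower of 6, and cartilage 2 higher and 2 lower of 5. Red cell genes had 2 higher and 2 lower of 8, nerve and glia 2 higher and 3 lower of 6, and skeletal muscle 0 higher and 4 lower of 9. Between E13 and E16, 21.6% of all genes tested were higher and 19.6% lower, and several of these lists had shares near that. The part of these other tissues in the keratin values was not tested.

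**Figure D1:**
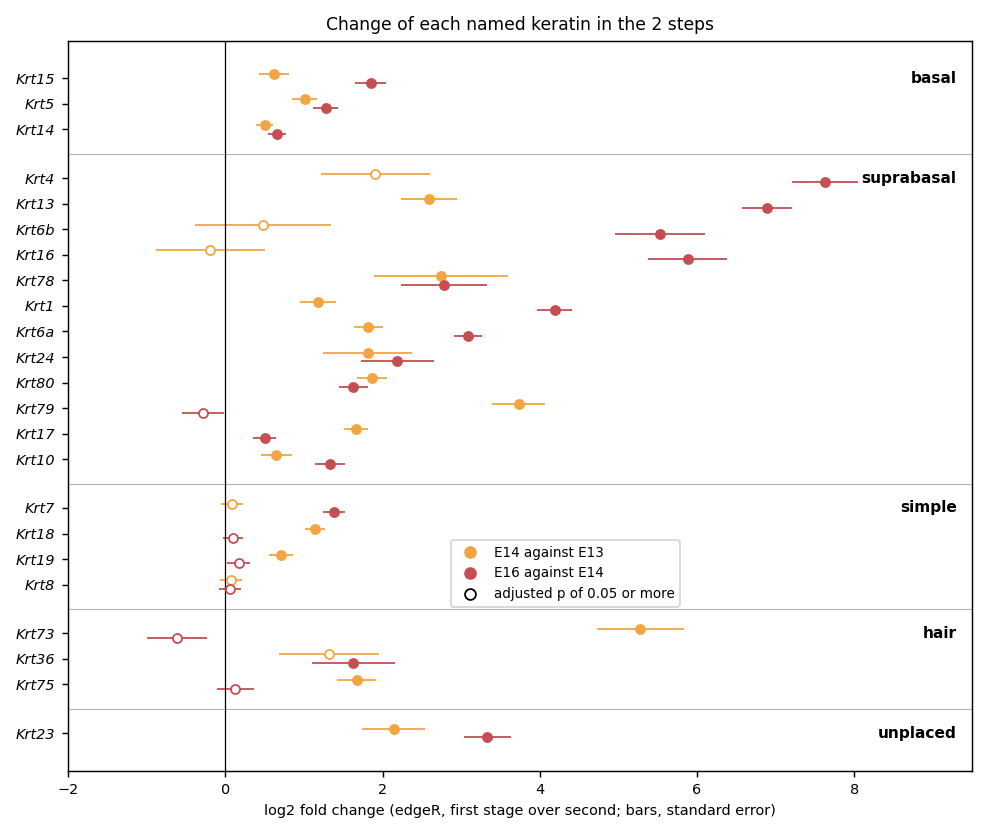
Log2 fold changes (x axis) of the 23 keratins at 1 CPM or more in a stage mean or called in a comparison, from E13 to E14 (orange) and from E14 to E16 (red), with standard errors from edgeR and open points where the adjusted p was 0.05 or more. The suprabasal Krt4 and Krt13 lie furthest to the right in the later step, at 7.63 and 6.89. Both were below the level of the filter in at least 1 E13 tooth, so that these folds support nothing on their own. Krt8 lies near 0 in both steps, and scaling to the epithelial reference lowers the median of all genes by 0.66 in the earlier step and 0.72 in the later, which turns Krt8 to -0.59 and -0.65.

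The genes lie in 2 clusters of GRCm38. On chromosome 11, 27 type I genes occupy 1037 kb (chr11:99232761-100269871), and on chromosome 15, 25 type II genes occupy 657 kb (chr15:101347444-102004482), with the type I gene Krt18 beside Krt8 at its end. Neighbours differed widely in level. Krt13 and Krt15, which follow each other on chromosome 11, were at 275 and 191 CPM per kb of exon at E16, while Krt36 on the other side of Krt13 was at 0.654 CPM per kb. Krt9, between Krt19 and Krt14, was at 0.105 CPM per kb at E16.

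Promoter windows of 250 bases before and 50 bases after a start site were taken from RefSeq on GRCm38.p6, and 34 of the 53 keratins had a window within 150 bases of their annotated 5' end. A TATAAA or ATAAAA on the strand of the gene, beginning between positions -40 and -20 from the start site, was present in 20 of these 34 windows (58.8%) and in 942 of the 32851 windows of the table (2.87%). It was present in 12 of 17 hair keratin windows, in 5 of 10 suprabasal, in the only basal window, and in 1 of 3 simple. The GC box GGGCGG, searched on both strands, was in 1 of the 34 windows (2.94%) and in 35.7% of all windows. The pattern TGANTCA, which is looser than the AP-1 site because N is any base, was in 1 of the 34 and in 7.81% of all windows. The AP-2 motif GCCNNNGGC was in 6 of the 34 (17.6%) and in 16.6% of all windows. TATAAA and ATAAAA overlap each other where TATAAAA occurs, and on both strands anywhere in the window they were in 19 and 21 of the 34, and in 13.6% and 18.5% of all windows. A match describes letters only. The windows of the keratin with the largest level at E16 among the differentiation keratins (Krt13), of the basal Krt5, and of the simple pair Krt8 and Krt18 are shown, with every match to these motifs in capitals.
Krt13, chr11:100121517-100121816, minus strand: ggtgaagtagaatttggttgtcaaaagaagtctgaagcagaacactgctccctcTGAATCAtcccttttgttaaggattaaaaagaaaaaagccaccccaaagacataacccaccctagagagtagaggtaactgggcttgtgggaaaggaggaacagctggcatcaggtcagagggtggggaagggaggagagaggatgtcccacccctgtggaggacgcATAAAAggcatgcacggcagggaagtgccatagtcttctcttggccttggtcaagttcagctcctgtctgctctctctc
Krt5, chr15:101712856-101713155, minus strand: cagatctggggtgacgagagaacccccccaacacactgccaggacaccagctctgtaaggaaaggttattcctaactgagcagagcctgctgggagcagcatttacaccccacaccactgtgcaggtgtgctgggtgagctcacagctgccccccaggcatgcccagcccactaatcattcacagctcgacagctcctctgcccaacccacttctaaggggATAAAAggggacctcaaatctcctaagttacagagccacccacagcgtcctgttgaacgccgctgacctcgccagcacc
Krt8, chr15:102004293-102004592, minus strand: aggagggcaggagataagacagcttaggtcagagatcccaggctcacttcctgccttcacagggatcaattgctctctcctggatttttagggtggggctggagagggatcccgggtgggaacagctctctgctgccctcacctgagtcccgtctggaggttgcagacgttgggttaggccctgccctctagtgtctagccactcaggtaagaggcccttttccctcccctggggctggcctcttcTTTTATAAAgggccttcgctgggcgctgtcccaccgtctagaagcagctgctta
Krt18, chr15:102027966-102028265, plus strand: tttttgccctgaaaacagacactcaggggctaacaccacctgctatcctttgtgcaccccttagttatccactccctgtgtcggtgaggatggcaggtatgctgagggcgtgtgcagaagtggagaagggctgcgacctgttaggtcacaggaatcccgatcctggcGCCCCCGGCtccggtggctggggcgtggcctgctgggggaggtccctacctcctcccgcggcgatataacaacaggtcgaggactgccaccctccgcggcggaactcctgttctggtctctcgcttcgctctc
In the windows of Krt13 and Krt5, ATAAAA began at position -29. Krt13 also held the only TGANTCA match of the 34 windows, at position -196, where it reads TGAATCA, which is not the strict AP-1 site. In Krt8 the matches, on both strands, began between positions -4 and -1, with the RefSeq start 140 bases from the annotated gene end. Krt18 held none of these A and T rich motifs and had an AP-2 match at position -83. Windows of Krt4, Krt1, Krt6a, Krt17, Krt15, Krt16, and Krt80 were not used here.

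The basal keratins were among the highest at each stage. Krt5, the type II keratin of basal cells, ranged from 138 to 279 CPM over the E13 teeth (median 184). It ranged from 358 to 491 CPM at E14 (median 395), and from 521 to 1260 CPM at E16 (median 1010). No tooth of one stage overlapped with a tooth of another, and the lowest E16 tooth was the left tooth of embryo 3. Krt5 rose 2.01-fold to E14 (edgeR, log2 fold change 1.01 ± 0.16 SE, adjusted p = 6.26e-05) and 2.43-fold from E14 to E16 (1.28 ± 0.16, adjusted p = 1.17e-06, and 1.40 without that tooth).

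Krt14, the type I partner of Krt5 in basal cells, changed less. Its range was 142 to 226 CPM at E13 (median 156), 213 to 303 CPM at E14 (median 240), and 355 to 448 CPM at E16 (median 378). The teeth of E13 and E14 overlapped, and those of E16 stood above both. The rise was 1.41-fold to E14 (edgeR, adjusted p = 0.00141) and 1.58-fold from E14 to E16 (adjusted p = 2.99e-05), and scaled to the epithelial reference neither step passed the threshold (log2 fold changes -0.16 and -0.05, adjusted p = 0.219 and 0.677).

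Krt15, a type I keratin of basal cells that marks stem cell regions of other epithelia, ranged from 45.5 to 84 CPM at E13 (median 56.0), from 45.1 to 135 CPM at E14 (median 87.2), and from 257 to 437 CPM at E16 (median 341). E13 and E14 overlapped over the whole E13 range, and E16 stood above both. The step to E14 was 1.53-fold (edgeR, adjusted p = 0.0257), had an adjusted p between 0.05 and 0.0703 when any 1 of 6 teeth was left out (replicates 2, 3, and 7 of E14 and replicates 1, 6, and X of E13), and was at a log2 fold change of -0.05 when scaled to the epithelial reference. The step from E14 to E16 was 3.59-fold (adjusted p = 9.59e-08).

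**Figure D2:**
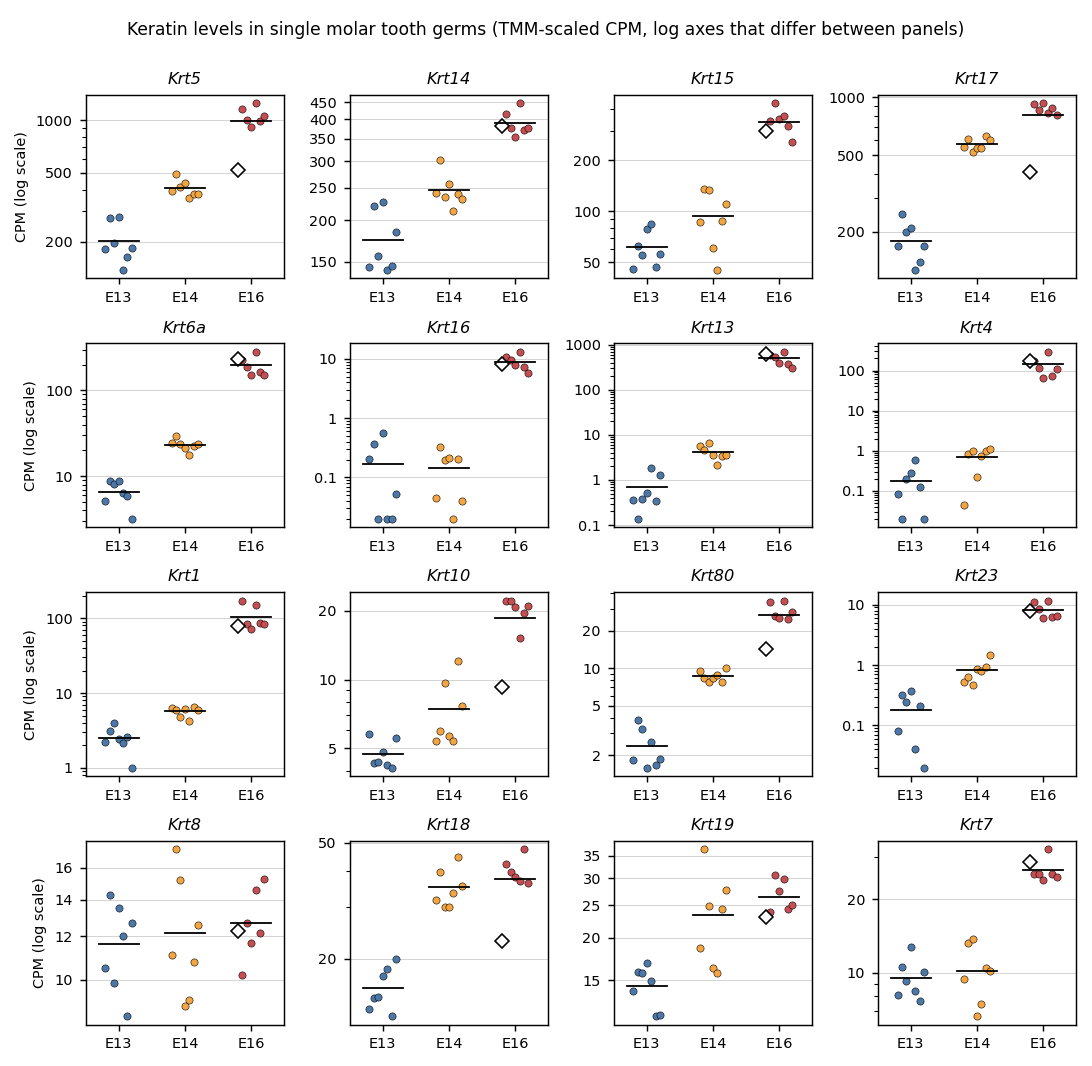
Levels of 16 keratins in each of the 21 teeth (TMM-scaled CPM, log axes that differ between panels), by stage, with a line at the mean, a diamond for the left tooth of embryo 3 at E16, and values below 0.02 CPM drawn at 0.02. Krt13 and Krt4 lie at or below 6.61 CPM at E13 and E14 and at 66.3 CPM or more in every E16 tooth, while the 3 stages of Krt8 overlap between 8.58 and 17.3 CPM.

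Of the 17 suprabasal keratins, 12 were tested, and 9, 11, and 12 of them were higher in the comparisons of E14 with E13, E16 with E14, and E16 with E13, against 11.3, 15, and 21.6% of all genes. Of the 12, 7 were below the level of the filter in an E13 tooth (Krt24, Krt13, Krt16, Krt6b, Krt4, Krt79, and Krt78), so that their share is partly set by the filter. For these 7, passing the filter and being higher later are not independent, so that their folds support nothing on their own. The other 5 (Krt10, Krt17, Krt80, Krt6a, and Krt1) were higher in each comparison. Krt13, a type I keratin of oral mucosa, had the largest increase in CPM of the differentiation keratins. At E13 it ranged from 0.138 to 1.84 CPM (median 0.386), and at E14 from 2.16 to 6.61 CPM (median 3.63). At E16 it ranged from 309 to 694 CPM (median 529). The stages did not overlap, and the rise was 6.00-fold to E14 (edgeR, log2 fold change 2.59 ± 0.36 SE, adjusted p = 1.09e-05) and 119-fold from E14 to E16 (6.89 ± 0.32, adjusted p = 1.19e-13).

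Krt4, its type II partner in mucosa, was at 0.0 to 0.573 CPM at E13 (median 0.127), and at 0.0441 to 1.10 CPM at E14 (median 0.843). At E16 it was at 66.3 to 295 CPM (median 114). The E13 and E14 teeth overlapped and the E16 teeth stood far above them. The difference between E13 and E14 had an adjusted p of 0.0522 in edgeR (log2 fold change 1.91) and of 0.0161 in DESeq2, and Krt4 rose 198-fold from E14 to E16 (adjusted p = 1.63e-12 in edgeR). Krt4 reached the level of the filter in all 7 teeth at E16 alone, so that its folds and p values support nothing on their own. At E16, Krt13 and Krt4 were both highest in replicate 5 (694 and 295 CPM), and the 3 teeth with the highest values were the same for both genes (replicates 5, 1, and 2).

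The keratins of skin differentiation rose on a smaller scale and not in step with each other. Krt1, the type II keratin of spinous cells, ranged from 1.01 to 4.01 CPM at E13 (median 2.42), from 4.24 to 6.45 CPM at E14 (median 5.94), and from 71.9 to 172 CPM at E16 (median 84.2), without overlap. It rose 2.27-fold and then 18.3-fold (edgeR, adjusted p = 6.15e-04 and 8.43e-13). Its type I partner Krt10 ranged from 4.12 to 5.79 CPM at E13 (median 4.34), from 5.37 to 12.1 CPM at E14 (median 5.98), and from 9.24 to 22.2 CPM at E16 (median 20.9). Neighbouring stages of Krt10 overlapped, the lowest E16 value being that of the left tooth of embryo 3, and the folds were 1.56 and 2.51 (adjusted p = 0.0223 and 8.31e-06), the later being a log2 fold change of 1.46 without that tooth against 1.33 with it. The earlier of these steps was at a log2 fold change of -0.04 when scaled to the epithelial reference, and an antisense gene, Gm11940, overlaps exons of Krt10.

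The 4 inducible keratins, which skin and oral epithelium raise after wounding, began with Krt17 and Krt6a well above 1 CPM and Krt16 and Krt6b near 0. Krt17 had the highest level per length of any keratin at each stage. It ranged from 127 to 248 CPM at E13 (median 170), from 520 to 628 CPM at E14 (median 552), and from 409 to 937 CPM at E16 (median 858), where the lowest was the left tooth of embryo 3 and the other 6 teeth were at 814 CPM or more. The first step was 3.17-fold (edgeR, adjusted p = 1.61e-08) and that from E14 to E16 1.41-fold (adjusted p = 0.0125). With the teeth of an embryo summed the later step was at a log2 fold change of 0.47 (edgeR, adjusted p = 0.0518), without the left tooth of embryo 3 at 0.63, and scaled to the epithelial reference it turned to -0.27 (adjusted p = 0.0363). Krt6a ranged from 3.19 to 8.89 CPM at E13 (median 6.39), from 17.8 to 29.5 CPM at E14 (median 23.7), and from 150 to 283 CPM at E16 (median 186), and rose 3.53-fold and then 8.53-fold (adjusted p = 7.59e-08 and 3.52e-12). An antisense gene, Gm49428, overlaps exons of Krt6a, and Krt6a has no salmon counts to compare.

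Krt16 and Krt6b were called in the second step and not in the first. Krt16 was at 0.0 to 0.560 CPM at E13 and at 0.0 to 0.321 CPM at E14, and at 5.72 to 13.2 CPM at E16 (median 8.25, 58.8-fold over E14, edgeR, adjusted p = 2.64e-09). Krt6b reached 0.145 CPM in the highest E13 tooth and 0.120 CPM in the highest E14 tooth, and ranged from 0.855 to 4.19 CPM at E16 (46.1-fold over E14, adjusted p = 5.34e-08). Whether their first steps differ from the second was not tested. Both reached the level of the filter in all 7 teeth at E16 alone. Passing the filter and being higher at E16 are therefore not independent, and their folds and p values support nothing on their own. Krt6a and Krt6b are close copies of each other, as are stretches of Krt14, Krt16, and Krt17, so that their counts are uncertain where reads fit more than 1 of them.

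Of the remaining suprabasal keratins, Krt80, a type II keratin that is widespread in differentiating epithelia, rose from 1.59 to 3.82 CPM at E13 (median 1.86) to 7.74 to 10.1 CPM at E14 (median 8.35) and 14.2 to 34.9 CPM at E16 (median 26.3). The stages did not overlap and the folds were 3.66 and 3.09 (edgeR, adjusted p = 1.46e-07 and 1.21e-07), the later at 1.75 on the log2 scale without the left tooth of embryo 3. Krt24 and Krt78 were higher in both steps but had stage means of no more than 1.95 and 1.13 CPM. For Krt24 the first step had no call when any 1 of 5 teeth was left out (replicate 6 of E14 and replicates 1, 3, 4, and 6 of E13) or when scaled to the epithelial reference (1.15 on the log2 scale, edgeR, adjusted p = 0.0735), and for Krt78 it had none without replicate 6 of E14 (adjusted p = 0.0858). Krt79, which marks openings of hair follicles and gland ducts in skin, was at 0.0815 to 0.696 CPM at E13, at 3.58 to 6.28 CPM at E14, and at 1.74 to 5.20 CPM at E16, a 13.3-fold rise to E14 (adjusted p = 1.80e-08) and a log2 fold change of -0.28 ± 0.27 from E14 to E16 (adjusted p = 0.478), which was -1.06 when scaled to the epithelial reference (adjusted p = 0.000782). Krt2, Krt9, Krt12, Krt76, and Krt77 did not pass the filter.

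Of the 5 simple keratins, 4 were tested, and 2, 1, and 3 of them were higher between E13 and E14, between E14 and E16, and between E13 and E16, where 11.3, 15, and 21.6% of all genes were. Krt8, the type II keratin of simple epithelia, was at 8.58 to 14.3 CPM at E13 (median 12), 8.95 to 17.3 CPM at E14 (median 11.1), and 10.2 to 15.3 CPM at E16 (median 12.3), with all stages overlapping. Its log2 fold changes were 0.07 ± 0.14 and 0.06 ± 0.14 (edgeR, adjusted p = 0.793 and 0.796), and those scaled to the epithelial reference were -0.59 and -0.65 (adjusted p = 0.00132 and 5.00e-04). A noncoding gene, Gm36026, overlaps exons of Krt8, and salmon placed 1.47 times as many counts on Krt8 as HTSeq did at E16. Whether these are linked was not tested.

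Its partner Krt18 rose in the first step. Krt18 was at 12.7 to 19.9 CPM at E13 (median 14.8), 30.1 to 44.7 CPM at E14 (median 33.5), and 23.0 to 47.4 CPM at E16 (median 38.0), where 23.0 CPM was the left tooth of embryo 3. The teeth of E13 lay below all others, and those of E14 and E16 overlapped. The rise to E14 was 2.21-fold (edgeR, adjusted p = 8.48e-07), and the log2 fold change from E14 to E16 was 0.10 ± 0.13 (adjusted p = 0.601), or 0.21 without that tooth and -0.65 scaled to the epithelial reference.

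Krt19, a type I keratin of simple epithelia and of some basal cells, was at 11.7 to 16.9 CPM at E13 (median 14.9), 15.7 to 36.6 CPM at E14 (median 24.3), and 23.1 to 30.8 CPM at E16 (median 25.0). It was 1.63-fold higher at E14 (edgeR, adjusted p = 0.00142, and 0.03 on the log2 scale when scaled to the epithelial reference) with no call from E14 to E16 (adjusted p = 0.427). Krt7, a type II keratin of ducts and glands, was called in the second step and not in the first. It overlapped between E13 and E14, at 7.69 to 12.8 and 6.62 to 13.7 CPM, and stood above both at E16, at 24.1 to 32.1 CPM (2.61-fold over E14, adjusted p = 5.19e-08), and an antisense gene, Gm671, overlaps its exons. Krt20 did not pass the filter.

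Of the 23 hair keratins, 3 passed the filter. Krt73 and Krt75, keratins of the inner root sheath and of the companion layer of the hair follicle, were higher at E14 than at E13. Krt73 was at 0.0 to 0.255 CPM at E13, 1.28 to 4.52 CPM at E14 (median 2.33), and 0.99 to 2.20 CPM at E16 (median 1.59), and Krt75 was at 0.653 to 3.59, 4.85 to 8.53, and 4.48 to 9.48 CPM. For both, E13 lay below E14 without overlap, and E14 and E16 overlapped. The folds to E14 were 38.8 for Krt73 and 3.18 for Krt75 (edgeR, adjusted p = 1.75e-07 and 2.56e-05), against log2 fold changes of -0.61 ± 0.38 and 0.13 ± 0.23 from E14 to E16 (adjusted p = 0.250 and 0.728), which scaled to the epithelial reference were -1.34 and -0.64 (adjusted p = 0.00523 and 0.02). Krt36, a keratin of the shaft group, was higher at E16 than at E14 (adjusted p = 0.0235) and reached a mean of 1.09 CPM. It had no call without replicate 5 of E14 (adjusted p = 0.0502) or when scaled to the epithelial reference (0.92 on the log2 scale, edgeR, adjusted p = 0.115). Krt73, with 9 counts over the 7 E13 teeth, and Krt36 were below the level of the filter in at least 1 E13 tooth. For these keratins passing the filter and being higher later are not independent, so that their folds support nothing on their own.

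The other 20 hair keratins stayed at or below a stage mean of 0.289 CPM per kb. When genes with any count were kept in the edgeR fit, 9 further keratins were higher at E16 than at E13, among them the shaft keratins Krt31, Krt32, Krt33a, Krt34, Krt35, and Krt82, and DESeq2 added 7, of which 5 are of the shaft group. These were chosen for naming after their values were seen. Krt42, an unplaced keratin, and Krt31 had the highest levels of them at E16, at 0.374 and 0.289 CPM per kb. The shaft keratins named here had 0 to 11 counts over the E13 teeth and 11 to 76 over the E16 teeth. They entered these fits mainly through E16, and the share of all genes called in these fits is not given. Nothing is therefore read from the counts of further keratins. Of the unplaced keratins, Krt23, a type I keratin, ranged from 0.0 to 0.373 CPM at E13, from 0.469 to 1.46 CPM at E14, and from 5.94 to 11.7 CPM at E16 and rose 4.41-fold and then 10.1-fold (edgeR, adjusted p = 3.65e-04 and 7.30e-09), and Krt222 was tested without a call. Both were among the keratins below the level of the filter in an E13 tooth, so that the folds of Krt23 support nothing on their own.

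Summed over all keratins, the level was 377 ± 74.5 CPM per kb of exon (SD, n = 7) at E13, 817 ± 69.2 at E14, and 1914 ± 287 in the E16 teeth. The ranges were 302 to 484, 722 to 947, and 1480 to 2333, so that no stage overlapped with another. Per length, Krt17, Krt14, and Krt5 led at E13, at 116, 99.2, and 92.4 CPM per kb, with SDs of 26.9, 20.7, and 24.8 over teeth, and all overlapped. At E14 Krt17 stood at 369 CPM per kb, above Krt5 at 185 and Krt14 at 140. At E16 Krt17 and Krt5 were at 520 ± 117 and 450 ± 108 CPM per kb and overlapped, followed by Krt13 at 275, Krt14 at 221, Krt15 at 191, Krt6a at 82.6, and Krt4 at 66.7. Among all 21896 protein-coding genes Krt17 moved from rank 132 at E13 to 28 at E14 and 12 at E16 by level per length, and Krt13 from rank 12983 to 39.

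The makeup of this sum differed between stages. The share of the basal keratins was 60 ± 2.35% at E13, 46.3 ± 3.05% a day later, and 45.0 ± 1.98% in the E16 teeth. The differentiation keratins made up 1.06 ± 0.244% and 1.24 ± 0.214% at E13 and E14 and 19.9 ± 5.75% at E16, where the highest tooth, at 29.9%, was the left tooth of embryo 3 and the other 6 were at 14.6 to 24.4%. The inducible keratins were at 31.5, 46.5, and 31.8%, and the simple keratins at 7.07 ± 1.09, 5.45 ± 0.605, and 2.67 ± 0.279%. Hair keratins held 0.270, 0.466, and 0.251%. These shares are descriptions of the teeth and were not tested. Type I exceeded type II at each stage, with log2 ratios of summed levels of 1.40 ± 0.138, 1.53 ± 0.128, and 1.01 ± 0.201.

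**Figure D3:**
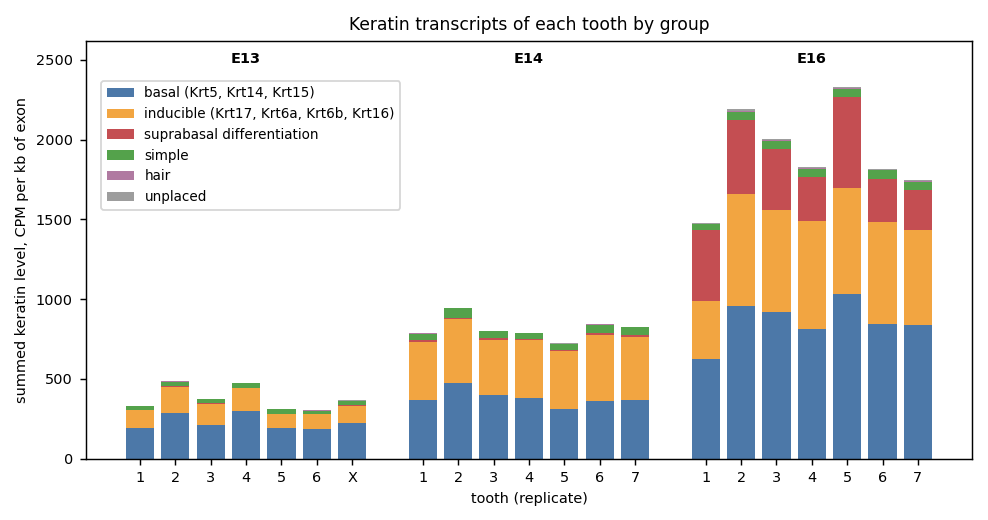
Summed keratin level of each tooth (y axis, CPM per kb of exon) by stage and replicate, divided by group. The blue basal and orange inducible parts make up nearly the whole bar at E13 and E14, and the red differentiation part takes 14.6 to 29.9% of the bar at E16.

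Whether keratins rose beyond the reference genes was tested for 8 of them. Each was set against the mean log2 level of the 9 reference genes in the same tooth. Exact permutation tests over the 3432 splits of 7 against 7 teeth were used, two-sided and adjusted over 24 tests. The reference genes are not the epithelium as a whole and differed among themselves. Between E13 and E16 their log2 fold changes in edgeR ran from 0.84 for Epcam to 3.01 for Rab25. Krt5 rose relative to the reference by 0.41 on the log2 scale between E13 and E14 (adjusted p = 0.00746) and by 0.52 between E14 and E16 (adjusted p = 0.0014). Krt14 did not pass the threshold in these permutation tests, with differences of -0.12 and -0.05 (adjusted p = 0.213 and 0.723). Between E13 and E16 it differed by -0.17 (adjusted p = 0.213, exact permutation test), and by -0.26 without the left tooth of embryo 3 (adjusted p = 0.023). Krt15 differed by -0.08 in the first step (adjusted p = 0.762, exact permutation test) and rose by 1.20 in the second (adjusted p = 0.0014). Krt17 rose by 1.06 in the first (adjusted p = 0.0014, exact permutation test) and then fell by 0.26 (adjusted p = 0.0148), or by 0.09 with Cdh1 and Epcam as the only reference genes (adjusted p = 0.261).

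Of the simple keratins, Krt8 and Krt19 were lower relative to the reference at E16 than at E13, by differences of -1.22 and -0.49 (exact permutation tests, adjusted p = 0.0014 and 0.00254). Krt8 fell by 0.58 and by 0.63 in the 2 steps (exact permutation tests, adjusted p = 0.0014 and 0.00599). Scaled to the reference, the median of all genes moved by -0.66 and -0.72 in these steps and by -1.39 from E13 to E16. Falls of this size were therefore not particular to the simple keratins. Krt18 rose by 0.49 and fell by 0.63 (both adjusted p = 0.0014, exact permutation), with a difference of -0.14 between E13 and E16 (adjusted p = 0.176), or -0.19 without replicate 2 of E13 (adjusted p = 0.0443). Krt7 fell by 0.57 and rose by 0.66 (exact permutation tests, adjusted p = 0.0035 and 0.0043). Krt19 differed by 0.01 in the first step (adjusted p = 0.923, exact permutation) and fell by 0.5 in the second (adjusted p = 0.0148). With Cdh1 and Epcam as the only reference genes, Krt19 did not pass, at -0.34 from E14 to E16 and -0.3 from E13 to E16 (exact permutation tests, adjusted p = 0.109 and 0.0997).

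**Figure D4:**
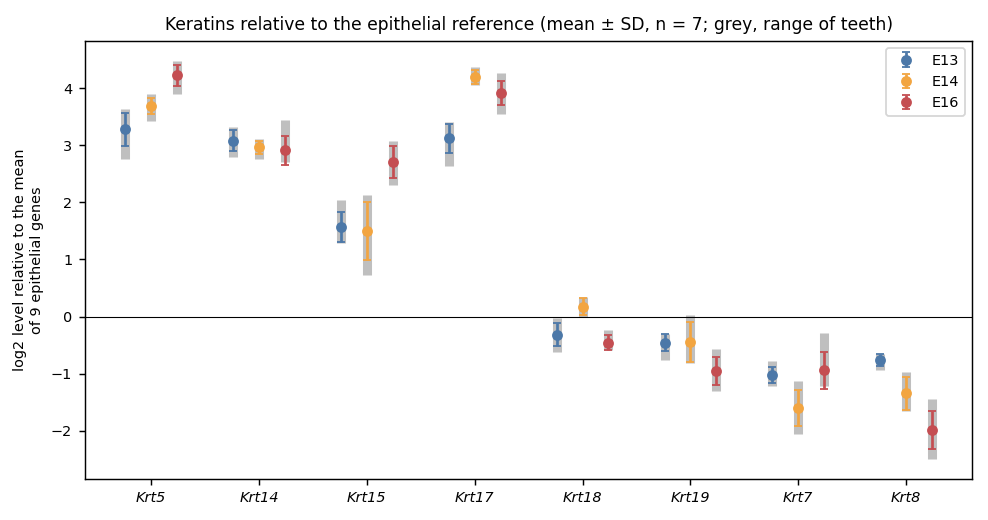
Mean log2 level of 8 keratins relative to the mean of the 9 epithelial reference genes in the same tooth (y axis), with SD bars over 7 teeth and grey bars for the range. Krt5 climbs from 3.28 to 4.22 and Krt8 descends from -0.76 to -1.98, while Krt14 stays between 2.91 and 3.08. Scaled to the reference, the median of all genes moved by -1.39 from E13 to E16.

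The partners Krt5 and Krt14, and Krt8 and Krt18, did not keep a fixed ratio over all stages. The log2 ratio of Krt5 to Krt14 was 0.20 ± 0.16 (SD, n = 7) at E13, 0.73 ± 0.05 at E14, and 1.30 ± 0.38 at E16. It rose by 0.53 and by 0.57 (exact permutation tests, two-sided, adjusted over 18 tests, p = 0.00117 and 0.00599), and the lowest E16 tooth, at 0.45, was the left tooth of embryo 3 and lay below the E14 range. Without it Krt5 rose relative to Krt14 by 0.72 from E14 to E16 and by 1.24 from E13 to E16. The log2 ratio of Krt8 to Krt18 fell by 1.07 from -0.44 ± 0.21 at E13 to -1.51 ± 0.36 at E14 (adjusted p = 0.00117, exact permutation test) and was at -1.51 ± 0.40 at E16. The other ratios set keratins of the same type against each other. The log2 ratio of Krt5 to Krt8 rose by 0.99 and by 1.16 (adjusted p = 0.00117 and 0.00191, exact permutation tests). That of Krt14 to Krt18 differed by -0.61 between E13 and E14 and by 0.58 between E14 and E16 (adjusted p = 0.00262 and 0.00191, exact permutation tests). Between E13 and E16 it differed by -0.03 (adjusted p = 0.932, exact permutation test). Krt17 rose by 1.18 relative to Krt14 between E13 and E14 (adjusted p = 0.00117, exact permutation test), with a difference of -0.21 between E14 and E16 (adjusted p = 0.322). Krt15 rose by 1.25 relative to Krt14 between E14 and E16 (adjusted p = 0.00117, exact permutation test), with 0.04 between E13 and E14 (adjusted p = 0.932).

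E15 could be read only from the table of counts estimated by salmon, which holds 29 of the 53 keratins, and E15 was not tested. Krt13 was at 3.18 to 42.2 normalized counts over the E13 teeth there, at 840 to 3051 over the 6 E15 teeth, and at 6854 to 15588 over the E16 teeth. Krt4 had means of 3.83, 149, and 3264 normalized counts at E13, E15, and E16, and Krt1 of 56.6, 384, and 2388. For these genes, and for Krt23 and Krt80, the E15 teeth lay between E13 and E16 without overlap. Krt5, Krt14, Krt15, Krt17, Krt18, and Krt10 lay above E13 at E15 and overlapped with E16. Krt7 overlapped with E13 at E15, with means of 248, 318, and 636, and Krt8 overlapped throughout, with means of 390, 445, and 434. The ratio of salmon to HTSeq counts at E16 was between 0.978 and 1.05 for Krt5, Krt13, Krt14, Krt15, Krt17, Krt1, and Krt4, and 1.83 for Krt80. Antisense genes overlap exons of Krt80 and also of Krt10 and Krt7, whose ratios were 0.975 and 1.03. Krt222, which overlaps no other gene in the annotation, had a ratio of 1.96. The cause of these differences was not tested.

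**Figure D5:**
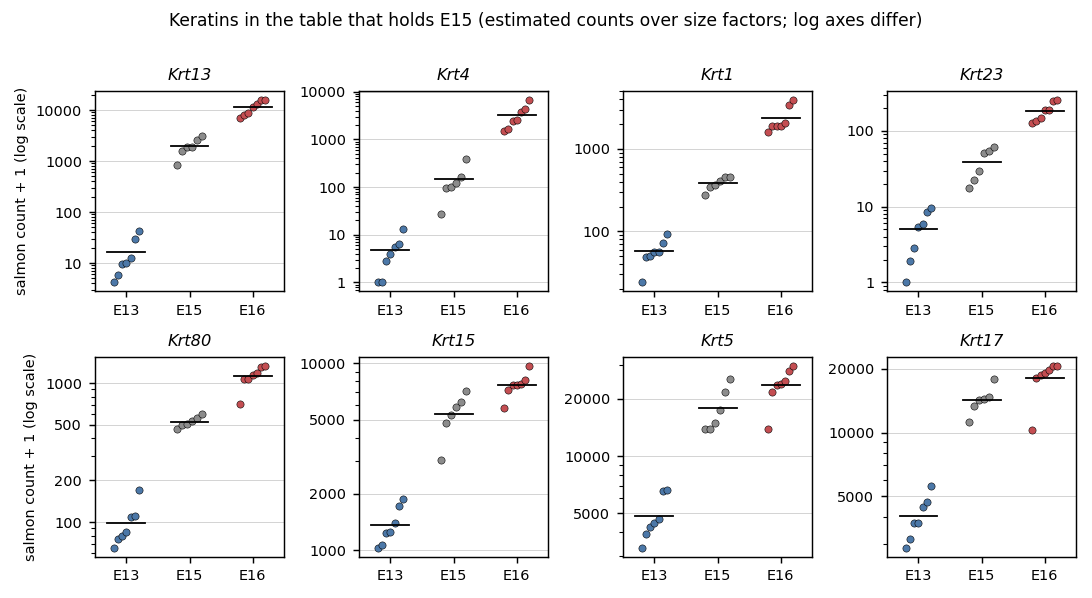
Salmon counts divided by size factors, plus 1 (y axis, log axes that differ between panels), of 8 keratins in the teeth of E13, E15, and E16, with lines at the means. The E15 teeth of Krt13, Krt4, Krt1, Krt23, and Krt80 lie between the other stages without touching them, and those of Krt15, Krt5, and Krt17 reach into the E16 range.

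Many genes that work with keratin filaments were also higher at the later stages. Of 18 genes tested that anchor filaments at desmosomes and hemidesmosomes, 12 were higher and 0 lower at E14 than at E13, with a median log2 fold change of 0.53 against -0.01 over all genes, of which 11.3% were higher. At E16 against E14, 14 were higher and 0 lower, where 15% of all genes were higher, and the median was 0.78. The epithelial reference genes had medians of 0.61 and 0.65 in these steps. Dsp, the desmoplakin that ties keratins to desmosomes, rose by 0.80 and 0.79 on the log2 scale (edgeR, adjusted p = 1.47e-04 and 9.59e-05), and Dsg3, a cadherin of desmosomes, by 1.19 and 1.86 (adjusted p = 2.22e-07 and 3.87e-11). Itga6, the integrin of hemidesmosomes, rose by 1.54 in the first step (edgeR, adjusted p = 4.19e-11) and had no call in the second, at -0.23 (adjusted p = 0.0727).

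Of 11 cornified envelope genes tested, 4 were higher at E14 than at E13 and 10 at E16 than at E14, with 0 lower, where 11.3 and 15% of all genes were higher. Of these genes, Cnfn, Cdsn, Dsc1, Sprr1a, and Tgm3 had stage means of no more than 0.362 CPM at E13 and E14 and passed the filter through E16. The later count is therefore partly set by the filter. For these genes passing the filter and being higher later are not independent, so that their folds and p values support nothing on their own. Cnfn, a cornified envelope protein, had no count in any tooth of E13 and E14 and a mean of 8.55 CPM at E16, at least 485-fold above the E14 limit of 3 counts over the 7 teeth. It was highest in replicate 5 of E16, at 16.2 CPM, the tooth that was also highest for Krt13 and Krt4. Cdsn, a protein of cornified desmosomes, rose by 6.72 from E14 to E16 (edgeR, log2 scale, adjusted p = 3.95e-09) and Sprr1a, a precursor of the envelope, by 4.67 (adjusted p = 1.15e-08). Ivl, Flg, and Sprr1b were not tested, and no tooth had a count of Ivl at E13 or E14.

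Among 17 tested regulators of epithelial genes, 10 were higher and 0 lower at E14, and 9 were higher and 2 lower at E16 against E14, with median log2 fold changes of 0.57 and 0.48 beside 0.61 and 0.65 for the epithelial reference genes. In these steps 11.3 and 15% of all genes were higher and 8.47 and 13.1% lower. Trp63, the transcription factor of stratified epithelia, rose by 0.47 and 0.94 on the log2 scale (edgeR, adjusted p = 1.88e-04 and 3.67e-09), and Foxn1, a factor of skin and hair differentiation, by 1.60 and 2.61 (adjusted p = 0.00305 and 5.77e-07), whereas Tfap2c fell by 1.18 in the second step (adjusted p = 8.56e-07). Of 10 other intermediate filament genes tested, 1 was higher and 2 were lower at E14, and 0 were higher and 5 lower at E16 against E14, with medians of -0.14 and -0.49. Vim, the filament of mesenchyme, was at log2 fold changes of 0.39 and -0.22 (adjusted p = 0.113 and 0.363), and Nefl, a neurofilament, fell by 3.8 in the second step (adjusted p = 1.12e-08).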

How the data were processed

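RNAseq libraries of 21 single molars were used, 7 for each stage. The deposited counts are whole reads per gene without normalization, which the authors made with Trimmomatic, STAR on GRCm38, and HTSeq. Whether strand was used is not given in the sources used here. A second deposited table holds expected counts estimated by salmon for 14185 genes in whole numbers, and these were divided by DESeq2 (1.42.0) size factors. All columns were mapped to samples or groups, 1 E13 column by its stage alone.

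Symbols, biotypes, and exon lengths came from GENCODE on GRCm38, where 147 identifiers were absent. The quasi-likelihood test of edgeR (4.0.16, R 4.3.3) was fitted to the 21 libraries with TMM and filterByExpr, and p values were adjusted over the 19101 genes tested (Benjamini-Hochberg). Levels per length are CPM per kb of exon. Ratios used log2(CPM + 0.5). In simulated counts for E16 against E14, 96% of genes changed by 2 and 73.5% of those changed by 1 on the log2 scale were recovered among 18821 genes. No pair of teeth of a stage was a duplicate (chi-square per degree of freedom at least 7.74). Keratins are named with values at 1 CPM or more in a stage mean or when called, and of each other list at most 4 genes per comparison, the called with the largest changes, besides Trp63, Dsp, and Vim. The alternatives were DESeq2, other filters, scaling to the epithelial reference, teeth of an embryo summed, the salmon table, a pseudocount of 0.05, Cdh1 and Epcam as the only reference genes, and each tooth left out. Members and lists were chosen with earlier results of these data known.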

Additional observations from a re-analysis of the deposited data

Results flagged for a closer look

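In 6 of 69 groups of 7 teeth, 1 tooth lay further from the others than a Dixon test at 95% allows, where chance gives about 1 group in 20. In 5 of them it was the lowest E16 tooth, the left tooth of embryo 3. Its Krt17 was 409 CPM against 814 to 937 CPM in the other 6 teeth, and its Krt5 521 CPM against 913 to 1260 CPM. Its Krt18 was 23.0 CPM against 36.3 to 47.4, its Krt80 14.2 CPM against 24.7 to 34.9, and its Krt10 9.24 CPM against 15.2 to 22.2. Its Krt13 (612 CPM), Krt4 (172 CPM), Krt6a (234 CPM), and cornified envelope genes (340.0 CPM summed, against 161 to 284 CPM) were within or above the range of the others. The sixth was Krt6b at E13, at 0.145 CPM in replicate 3 against 0.0 to 0.0425 CPM.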

How the results depend on the processing

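Over the alternatives, 12 to 18, 14 to 21, and 17 to 31 keratins were higher (E14 against E13, E16 against E14, and E16 against E13). Scaled to the epithelial reference, 2, 7, and 2 keratins were lower, and of all genes 458, 662, and 602 were higher and 13505, 12983, and 16422 lower. With that scaling the log2 fold change turned between E13 and E14 to -0.04 for Krt10, -0.05 for Krt15, -0.16 for Krt14, -0.57 for Krt7, -0.13 for Krt6b, and -0.59 for Krt8. Between E14 and E16 it turned to -0.54 for Krt19, -0.05 for Krt14, -0.27 for Krt17, -0.64 for Krt75, and -0.65 for Krt8 and Krt18, and between E13 and E16 to -0.51 for Krt19, -0.21 for Krt14, -1.24 for Krt8, and -0.18 for Krt18. In the salmon table, which tests fewer genes, 1974 genes were lower at E16 than at E13. With Cdh1 and Epcam as the only reference, the differences became 0.12 and 0.02 for Krt14 and 0.05 for Krt18 (E16 against E14, E16 against E13, and E16 against E13), while Krt17 (-0.09) and Krt19 (-0.34) between E14 and E16 and Krt19 (-0.3) between E13 and E16 no longer passed the threshold; the cause was not tested. With a pseudocount of 0.05 the Krt19 difference between E13 and E14 and the Krt8 to Krt18 ratio between E14 and E16 were 0.0, and with embryo means the Krt14 to Krt18 ratio between E13 and E16 was 0.05. With the teeth of an embryo summed, Krt17 rose by 0.47 between E14 and E16 (edgeR, adjusted p = 0.0518).

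With each tooth left out in turn, 14 to 18, 16 to 17, and 22 to 23 keratins were higher and 0 lower, and between 1256 and 2648 genes were lower at E14 than at E13, the latter without the left tooth of embryo 3 at E16. The log2 fold change between E13 and E14 ranged from -0.5 to 0.47 for Krt16 and from -0.04 to 0.13 for Krt8. In that comparison the calls of Krt10 (without replicate 3 or 6 of E14), Krt15 (without replicate 2, 3, or 7 of E14 or 1, 6, or X of E13), Krt24 (without replicate 6 of E14 or 1, 3, 4, or 6 of E13), and Krt78 (without replicate 6 of E14) were lost, and those of Krt4 (without replicate 4, 5, or 6 of E16, 1 or 4 of E14, or 5 of E13) and Krt36 (without replicate 4 of E13) gained. Between E14 and E16 the call of Krt36 was lost without replicate 5 of E14. Relative to the epithelial reference, E16 against E13 ranged from -0.26 to -0.13 for Krt14, from -0.02 to 0.14 for Krt7, and from -0.19 to -0.09 for Krt18, and E14 against E13 from -0.18 to 0.05 for Krt15 and from -0.07 to 0.08 for Krt19. The ratio of Krt8 to Krt18 ranged from -0.11 to 0.09 (E16 against E14), that of Krt14 to Krt18 from -0.13 to 0.05 (E16 against E13), and that of Krt15 to Krt14 from -0.07 to 0.17 (E14 against E13). No paired analysis was possible because replicate numbers only name the teeth of a stage, whose embryos differ between stages. Depth limits the keratins near 0 CPM.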
